A study of Mus musculus with 6 samples.

Results

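The transcripts described here are those of the mitochondrial genome in ovaries of newborn mice. They were taken as every row of the deposited table that lies on the same sequence as ATP6, which gave 37 of 47122 gene models: 13 protein-coding genes, 2 rRNA genes and 22 tRNA genes. The labels give 3 wild-type (WT) ovary samples and 3 samples in which Bcas2, whose protein belongs to the PRP19 complex of the spliceosome, was knocked out in oocytes (BCAS2 cKO, a conditional knockout), all at 1 day post partum (dpp). A further label speaks of granulosa cells, while titles and tissue give the ovary. Strain, Cre driver, deleted exons and pooling of animals were not given in the sources used here. Both groups are whole ovaries, which hold somatic cells beside oocytes, so less of a transcript per cell and fewer cells that carry it cannot be told apart.

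Mitochondria keep a small circular genome that is transcribed from both strands into long precursors by a single dedicated RNA polymerase, Polrmt. Most protein-coding and rRNA genes are separated by tRNA genes, and cleavage at the tRNA ends releases the individual RNAs. The 13 proteins are core subunits of respiratory complexes I, III and IV and of ATP synthase (complex V). None of these genes has introns, so the nuclear spliceosome does not act on their transcripts. Oocytes carry a large number of mitochondria, which the embryo inherits.

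Values are FPKM, deposited values of sequenced fragments that are corrected for a gene's length and a library's size, and whole reads recovered from them summed to between 16800421 and 19565275 per library. Bcas2 was at 54.5, 37.5 and 35.7 FPKM in WT replicates 1, 2 and 3 and at 18.9, 21.9 and 18.3 FPKM in the cKO libraries replicates 1, 2 and 3. Its log2 difference was −1.05 (SE 0.17, limma adjusted p = 0.955), so the test over all genes did not call the knocked-out gene itself. WT replicate 1 stood apart in vascular and stromal markers and cKO replicate 2 in blood markers, with values given beside the results they touch. The oocyte markers were present, with 11 of 12 passing the filter on low values. The labels do not say whether replicates are separate animals, so p-values measure only the spread between these samples.

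COX1, the catalytic subunit of cytochrome c oxidase, had the highest mean level of all 47122 rows. It was at 8575, 8913 and 8724 FPKM in the WT libraries and at 9908, 10237 and 8681 FPKM in the cKO libraries, so cKO replicate 3 lay inside the WT range. ND1, the complex I subunit encoded next to the rRNA genes, had the second highest mean level, at 4746, 5082 and 5397 FPKM in the WT libraries and 6151, 6361 and 4755 FPKM in the cKO libraries. CYTB, the only mitochondrially encoded subunit of complex III, followed with 3579, 4303 and 4058 FPKM in the WT libraries and 5375, 5540 and 4073 FPKM in the cKO libraries. The same order of libraries recurred in these genes: cKO replicates 2 and 1 were the highest pair and WT replicate 1 was the lowest.

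The other complex I subunits fell into a high and a low set. ND2 ranged from 1680 to 2660 FPKM over the 6 libraries, ND4 from 1230 to 2155 FPKM and ND5 from 1280 to 2080 FPKM. ND6, the only protein-coding gene of the minus strand, ranged from 1478 to 2746 FPKM. Within a library that is 1.01 to 1.32 times its plus-strand neighbour ND5 and 0.393 to 0.496 times its other neighbour CYTB. The strand setting of the counting is not given, so the strand of origin of the ND6 reads cannot be told. ND3 ranged from 15.7 to 33.3 FPKM and ND4L from 19.5 to 36.4 FPKM, although both belong to the same complex. The low set also held COX2 (79.4 to 135 FPKM) and COX3 (51.0 to 286 FPKM) of complex IV and ATP6 (54.9 to 143 FPKM) and ATP8 (0.753 to 1.69 FPKM) of ATP synthase. Per unit length, COX1 exceeded COX2 by 66.1 to 108 times within a library. In the plot of levels along the genome, the low genes form an unbroken run from COX2 to ND4L.

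**Figure D1:**
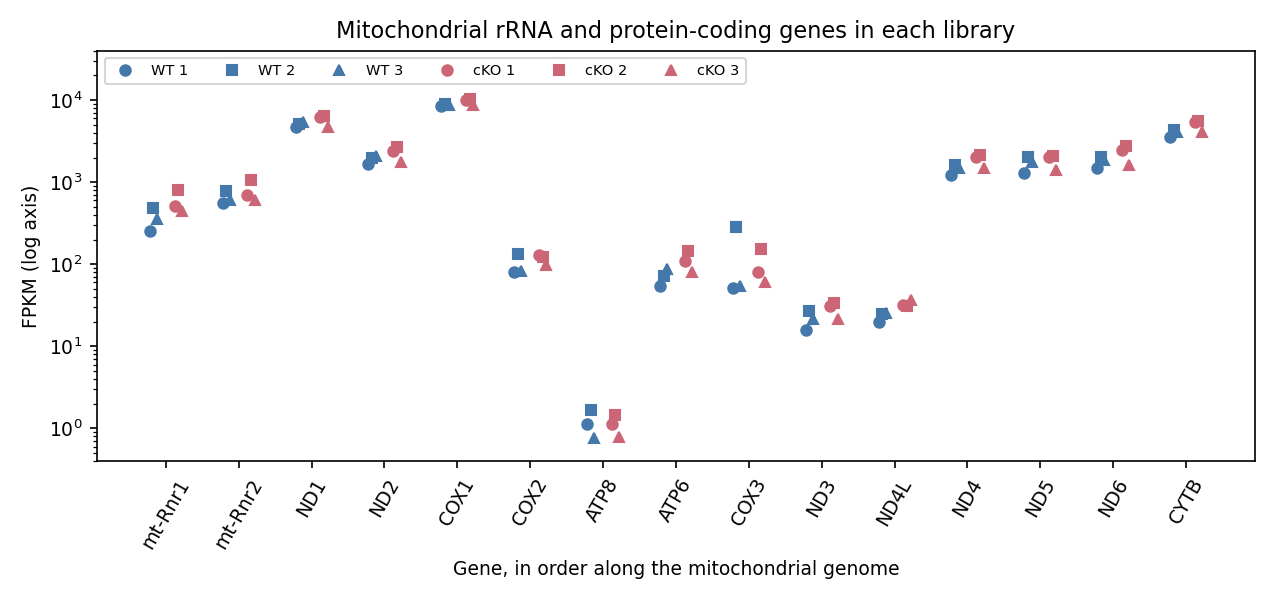
Level of the 2 rRNA and 13 protein-coding genes in order along the mitochondrial genome (x axis) as FPKM on a log axis (y axis), with 1 point per library (blue WT, red cKO; circle, square and triangle for replicates 1, 2 and 3). COX2, ATP8, ATP6, COX3, ND3 and ND4L lie between 0.753 and 286 FPKM, and the other protein-coding genes at 1230 FPKM or more.

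The low run coincides with a stretch of the mitochondrial genome that has a nuclear copy. Transcripts of the 37 genes in GENCODE M21 (GRCm38), whose positions equal those of the table for 37 of 37 genes, were aligned to all nuclear transcripts of that release. Hits on some chromosomes were left out of the list, so the matches given here and below are those on the chromosomes kept. What the hits left out would add was not tested. At 99% identity or more, 7 annotated pseudogenes of chromosome 1 matched, all neighbours on its minus strand between 24611535 and 24616197 (GRCm38). They covered COX2, ATP6 and COX3 over 681 of 684, 678 of 681 and 783 of 784 bases with no mismatch, ND4L over 294 of 297 bases with no mismatch, and ND3 over 345 of 348 bases with 1 mismatch. ND4 was matched over its first 876 of 1378 bases (63.6%) and COX1 over its last 483 of 1545 bases (31.3%). None of the nuclear transcripts kept matched ND1, ND2, ND5, ND6 or CYTB at that identity. Below that identity, nuclear transcripts matched COX1 over 1545 bases at 97.6%, ND2 over 510 bases at 96.7% and ND5 over 954 bases at 95.2%. Nuclear copies of CYTB and ND6 reached 92.9% and 93.6%.

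The stretches below show this difference in likeness for COX3, ND3, ND6 and CYTB, while the closer copies of COX1, ND2 and ND5 are not shown. Each stretch is 60 bases from the middle of the aligned part or around its only mismatch, taken from the GENCODE M21 transcripts. Capitals mark the bases that differ between a mitochondrial gene and its nuclear copy. For COX3 and its copy Gm28437, bases 362 to 421 are identical:
COX3: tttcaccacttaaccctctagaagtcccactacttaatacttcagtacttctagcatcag
Gm28437: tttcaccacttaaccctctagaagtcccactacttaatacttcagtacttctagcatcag
For ND3 and its copy Gm28438, bases 1 to 60 hold the single difference of the alignment:
ND3: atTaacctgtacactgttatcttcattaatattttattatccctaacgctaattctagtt
Gm28438: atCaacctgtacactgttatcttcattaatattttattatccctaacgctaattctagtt
For ND6 and its closest copy Gm11408, bases 230 to 289 hold 8 of 33 differences:
ND6: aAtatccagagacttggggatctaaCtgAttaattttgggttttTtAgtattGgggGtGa
Gm11408: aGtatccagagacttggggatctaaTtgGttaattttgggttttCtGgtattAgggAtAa
For CYTB and its closest copy Gm11410, bases 543 to 602 hold 4 of 81 differences:
CYTB: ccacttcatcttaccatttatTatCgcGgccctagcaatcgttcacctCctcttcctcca
Gm11410: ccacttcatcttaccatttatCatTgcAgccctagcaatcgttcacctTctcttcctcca

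The 5 genes with a copy over nearly their whole length had means of 24.9 to 114 FPKM over the 6 libraries. The 2 genes with a partial copy, ND4 and COX1, had means of 1668 and 9173 FPKM. Of the 6 genes with no such match of 50 bases or more, ND1, ND2, ND5, ND6 and CYTB had means of 1769 to 5415 FPKM. ATP8 was the exception at 1.16 FPKM. ATP8 lies between COX2 and ATP6, which are 230 bases apart in the mitochondrial genome. The annotated nuclear copies of those genes are 233 bases apart, with no annotated pseudogene between them. ATP8 also shares its last 43 bases with ATP6, in overlapping reading frames:
ATP8 and ATP6 overlap: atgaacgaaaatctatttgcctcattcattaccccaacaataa
These 43 bases lie in the part of ATP6 that its nuclear copy matches without a mismatch. They are shorter than the 50-base minimum of the search, so they do not count as a match for ATP8. How reads with several alignments, or reads in an overlap, were counted was not given in the sources used here. The part of the nuclear copies in the low values was not tested. ATP8 rested on 3 to 6 reads per library.

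**Figure D2:**
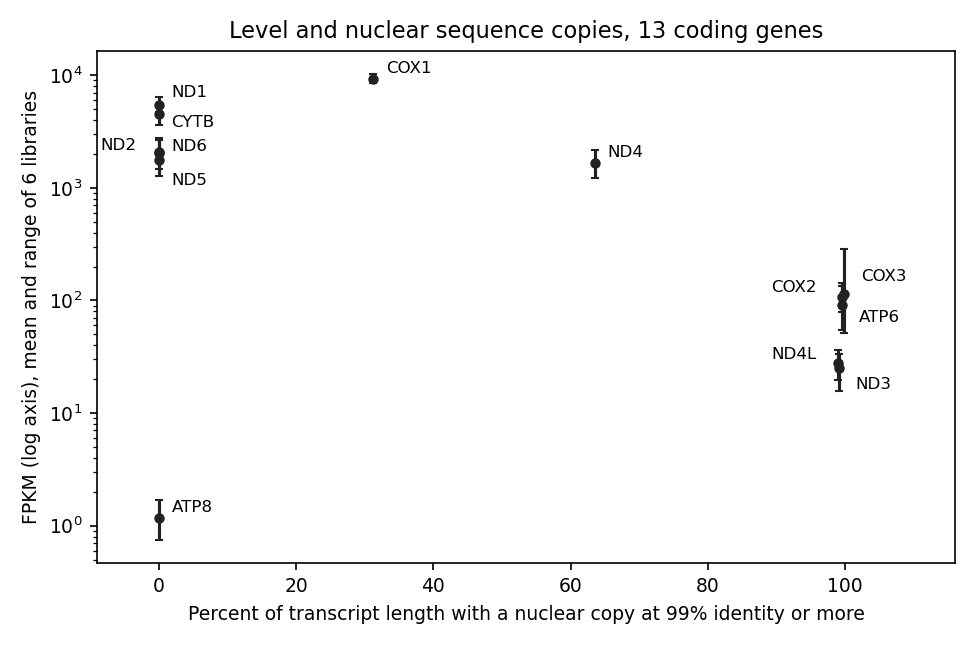
Mean FPKM of each protein-coding gene on a log axis (y axis; bars give the range of the 6 libraries) against the percent of its transcript that matches a nuclear transcript at 99% identity or more (x axis). COX2, ATP6, COX3, ND3 and ND4L, covered over 98.99 to 99.9%, lie at 24.9 to 114 FPKM on average. ATP8 is the only low gene without a match of 50 bases or more.

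None of the 7 pseudogenes of chromosome 1 is a row of the table under its symbol. The table does hold 1 unnamed gene model on the plus strand of chromosome 1, from 24650298 to 24655271 (GRCm39). The model's description likens it to cytochrome c oxidase subunit 3. It was at 44.0, 58.9 and 48.4 FPKM in the WT libraries and at 72.5, 93.3 and 56.5 FPKM in the cKO libraries, or 2944 to 6030 reads per library. As in ND1, COX1 and CYTB, cKO replicates 2 and 1 were highest and WT replicate 1 lowest, whereas COX3 itself was highest in WT replicate 2. The groups overlapped, with a log2 difference of 0.53 (SE 0.20, limma adjusted p = 0.955). Positions of the pseudogenes and of this gene model belong to different builds and were not converted.

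Protein-coding genes of the mitochondrial genome took 2.75% (95% exact binomial interval 2.74 to 2.76), 3.32% (3.31 to 3.33) and 3.18% (3.17 to 3.19) of the recovered reads in WT replicates 1, 2 and 3. In cKO replicates 1, 2 and 3 they took 3.90% (3.89 to 3.91), 3.96% (3.95 to 3.97) and 3.03% (3.02 to 3.04). These intervals cover counting error only. The groups overlapped, because cKO replicate 3 lay below 2 of the 3 WT libraries. The WT libraries had a mean of 3.08% ± 0.299 and the cKO libraries of 3.63% ± 0.521 (SD, n = 3 each), which is a ratio of 1.18. COX1 alone made up 40.0 to 46.4% of the protein-coding reads of a library and complex I genes 38.8 to 43.2%.

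**Figure D3:**
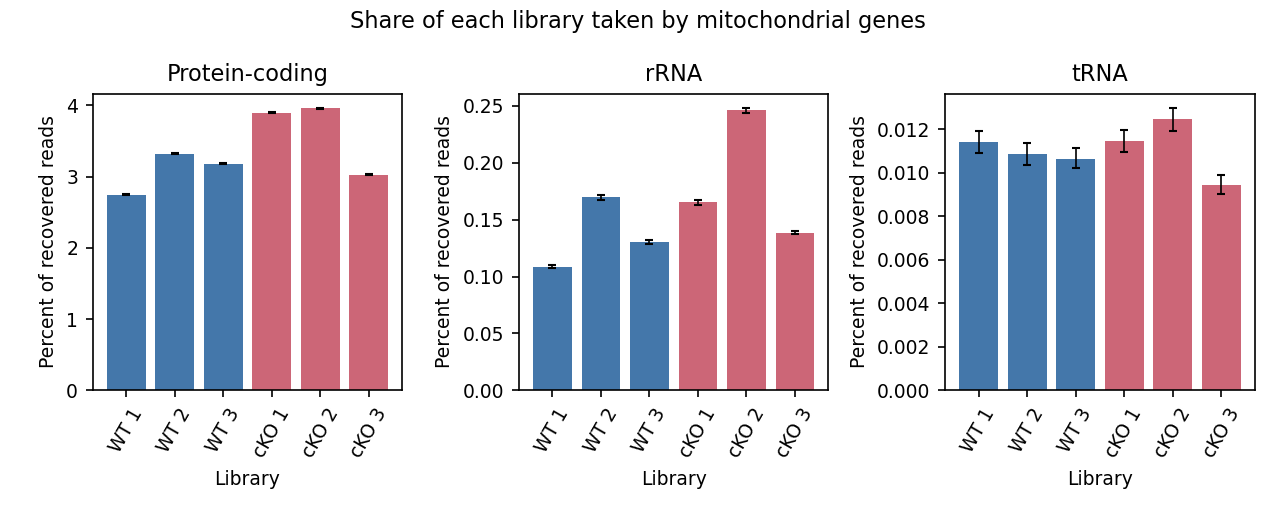
Percent of recovered reads (y axis, from 0) taken by mitochondrial protein-coding, rRNA and tRNA genes in each library (x axis; blue WT, red cKO), with exact 95% binomial intervals that cover counting error only. In the protein-coding panel cKO replicates 1 and 2 stand at 3.90 and 3.96%, and cKO replicate 3 at 3.03% lies within the WT range.

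Tested over all genes with limma on log2(FPKM + 1), no mitochondrial gene was called as higher or lower, and Bcas2 was not called either. Of the 37 genes, 32 passed the filter of at least 1 FPKM in at least 3 libraries: 13 protein-coding, 2 rRNA and 17 tRNA genes, of which 0 rose, 0 fell and 32 did not pass at an adjusted p under 0.05. Over all 14589 genes tested, 0% were called, the lowest adjusted p-value being 0.484, and voom on the recovered reads likewise called 0. Before adjustment 4 of the 32 (12.5%), ND4L, ATP6, TrnL1 and TrnS2, had a p under 0.05, against 3.04% of all genes (443 of 14589). The groups did not overlap for 3 of the 32 (9.38%), ND4L, TrnL1 and TrnW, against 7.88% of all genes. All cKO libraries lay above all WT libraries for 1 of the 32, ND4L, against 4.20% of all genes, and below them for 2, against 3.67%. Mitochondrial genes share a precursor and libraries, so they are not independent of each other.

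Of the 13 protein-coding genes, 11 had a higher mean log2 value in cKO and 2, ATP8 and COX3, a lower one, with a median log2 difference of 0.27 beside −0.01 over all genes tested, although quantile normalization turned ND1, ND2, ND5 and ND6 lower and set that median to 0. That median was 0.13 without WT replicate 1, 0.16 without cKO replicate 2 and 0.41 without WT replicate 2. WT replicate 1 was the lowest library for 12 of the 13 genes, and cKO replicate 2 the highest for 9. For the most abundant genes the log2 difference was 0.13 (SE 0.23, 95% interval −0.42 to 0.69) for COX1, 0.17 (SE 0.22) for ND1 and 0.32 (SE 0.22) for CYTB, with an adjusted p of 0.964, 0.955 and 0.955 in limma. In the plot of differences, the 95% intervals of these genes include 0.

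ND4L, a small complex I subunit whose gene overlaps ND4 by 7 bases, was the only protein-coding gene without overlap between the groups. It was at 19.5, 24.6 and 25.2 FPKM in the WT libraries and at 31.8, 30.6 and 36.4 FPKM in the cKO libraries, on 101 to 200 reads per library. The means were 23.1 ± 3.12 and 32.9 ± 3.04 FPKM (SD, n = 3 each), with a log2 difference of 0.50 (SE 0.13, limma adjusted p = 0.955). ATP6, the proton channel subunit of ATP synthase, was at 54.9, 71.4 and 87.0 FPKM in the WT libraries and at 111, 143 and 80.0 FPKM in the cKO libraries. Its log2 difference was 0.62 (SE 0.25, limma adjusted p = 0.955), and cKO replicate 3 lay inside the WT range. Both genes lie in the run with nuclear copies.

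COX3, a complex IV subunit of the same run, was highest in replicate 2 of both groups. It was at 51.0, 286 and 55.0 FPKM in the WT libraries and at 80.6, 152 and 60.6 FPKM in the cKO libraries, so WT replicate 2 was the highest of all. That library held 3894 COX3 reads against 697 to 2007 in the other 5. WT replicate 2 also had the highest summed immediate-early and heat-shock genes (589 FPKM, with 94.98 to 229.7 FPKM in the rest), and their part in the COX3 value was not tested. The ratio of COX3 to its neighbour ATP6 was 4.01 in WT replicate 2 and 0.633 to 1.06 in the others. The ratio of COX3 to COX2 was 2.12 in WT replicate 2, 1.26 in cKO replicate 2 and 0.611 to 0.664 in the others. The log2 difference between groups was −0.04 (SE 0.68), and 0.76 without WT replicate 2. COX2 was at 79.4, 135 and 82.9 FPKM in the WT libraries and 131, 121 and 99.1 FPKM in the cKO libraries, also highest in WT replicate 2.

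**Figure D4:**
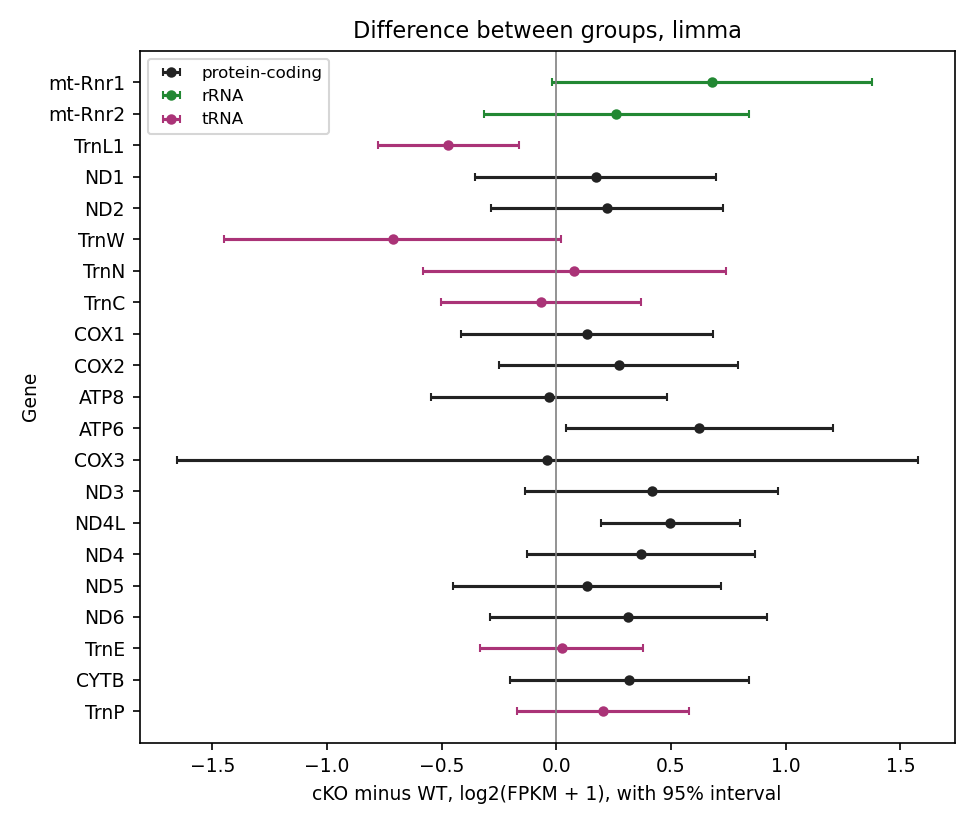
Difference between groups (x axis, cKO minus WT on the log2(FPKM + 1) scale, with 95% intervals from limma over 6 libraries) for the protein-coding genes, the rRNA genes and the 6 tRNA genes of highest mean level (y axis, in genome order). The intervals of ND4L, ATP6 and TrnL1 leave out 0 before adjustment, and no gene passed after adjustment.

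The 2 rRNA genes stood below the main mRNAs in every library. The large-subunit rRNA mt-Rnr2 was at 560, 774 and 606 FPKM in the WT libraries and at 703, 1072 and 602 FPKM in the cKO libraries, which is 0.0653 to 0.105 times the level of COX1. The small-subunit rRNA mt-Rnr1 was at 255, 480 and 361 FPKM in the WT libraries and at 516, 795 and 444 FPKM in the cKO libraries. Whether rRNA was depleted or polyadenylated RNA selected was not given in the sources used here. WT replicate 1 was lowest for both genes and cKO replicate 2 was highest for both. The log2 differences were 0.68 (SE 0.29) for mt-Rnr1 and 0.26 (SE 0.24) for mt-Rnr2, with an adjusted p of 0.955 each in limma, and the groups overlapped. Without cKO replicate 2 the differences were 0.44 for mt-Rnr1 and 0.02 for mt-Rnr2, and without WT replicate 1 they were 0.44 and 0.17.

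Among abundant nuclear noncoding RNAs, the summed level was lowest and highest in the same libraries, but single genes differed. Rn7sk, a nuclear noncoding RNA that restrains transcription elongation, was at 1.73, 36.4 and 13.6 FPKM in the WT libraries and at 24.1, 71.8 and 31.2 FPKM in the cKO libraries (log2 difference 1.77, SE 0.91, limma adjusted p = 0.955). Of the 8 such genes found, 6 passed the filter, 0 rose, 0 fell and the median log2 difference was 0.49. The summed level of the list was 44.4 to 110 FPKM in the WT libraries and 79.7 to 141 FPKM in the cKO libraries. Malat1, a nuclear long noncoding RNA, ranged from 32.4 FPKM in WT replicate 3 to 61.3 FPKM in WT replicate 2 and did not follow that order. The part of these RNAs in the rRNA values was not tested.

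The tRNA genes gave few reads, and these were uneven. All 22 tRNA genes together had 1737 to 2092 reads per library, or 0.00945 to 0.0125% of the total. Of the 22, 7 had at least 20 reads in every library, 13 had fewer than 20 in every library, and TrnA (10 to 33 reads) and TrnG (9 to 22 reads) crossed that mark. The 13 include 2 genes, TrnF and TrnD, that had none in any library, where 3 reads would be worth 2.19 to 2.62 FPKM. The 8 genes of the minus strand held 1466 to 1803 of these reads per library and the 14 genes of the plus strand 207 to 364.

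The 4 minus-strand genes TrnC, TrnP, TrnN and TrnE and the plus-strand gene TrnL1 were the 5 with a mean over 100 FPKM. Both of the most abundant are shown, 5′ to 3′ on their own strand and in lower case throughout, from the GENCODE M21 transcripts, because they hold most of the tRNA signal:
TrnC: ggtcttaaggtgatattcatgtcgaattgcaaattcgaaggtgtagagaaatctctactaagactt
TrnP: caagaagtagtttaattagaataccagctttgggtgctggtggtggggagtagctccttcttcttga
TrnC, the cysteine tRNA, lies from 5192 to 5257 of the mitochondrial genome and was at 604, 474 and 468 FPKM in the WT libraries and 557, 535 and 391 FPKM in the cKO libraries. TrnP, the proline tRNA that borders the control region at 15356 to 15422, was at 355, 370 and 449 FPKM in the WT libraries and 452, 520 and 386 FPKM in the cKO libraries. TrnN, the asparagine tRNA, ranged from 173 to 318 FPKM, and TrnE, the glutamate tRNA next to ND6, from 121 to 171 FPKM. These 4 overlapped between the groups, with log2 differences of −0.07, 0.20, 0.08 and 0.02. The strand setting of the counting is not given, and most of the minus-strand genes lie opposite a transcribed plus strand, so the strand of origin of these reads cannot be told.

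**Figure D5:**
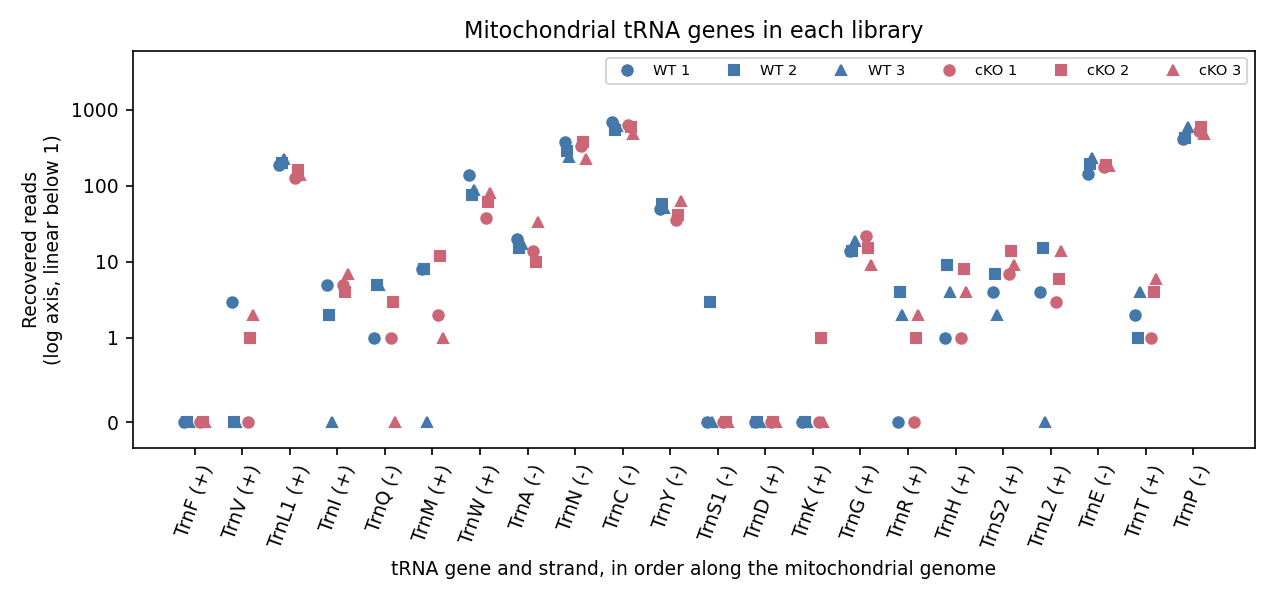
Recovered reads (y axis, log scale, linear below 1) of the 22 tRNA genes in order along the mitochondrial genome (x axis, strand in brackets), with 1 point per library (blue WT, red cKO; circle, square and triangle for replicates 1, 2 and 3). TrnC, TrnP and TrnN of the minus strand are highest, 13 genes stay under 20 reads in every library, and TrnF and TrnD are at 0 in all 6.

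TrnL1 and TrnW were lower in all 3 cKO libraries than in all 3 WT libraries. Their sequences are shown as those of the tRNA genes whose groups stood apart:
TrnL1: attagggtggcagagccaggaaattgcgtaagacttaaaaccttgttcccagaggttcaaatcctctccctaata
TrnW: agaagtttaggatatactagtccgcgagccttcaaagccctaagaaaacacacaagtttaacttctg
TrnL1, a leucine tRNA that lies between mt-Rnr2 and ND1 at 2676 to 2750, was at 142, 151 and 155 FPKM in the WT libraries and at 98.2, 128 and 98.6 FPKM in the cKO libraries, from 128 to 227 reads. Its log2 difference was −0.47 (SE 0.13, limma adjusted p = 0.955). TrnW, the tryptophan tRNA after ND2 at 4950 to 5016, was at 117, 65.3 and 67.2 FPKM in the WT libraries and at 32.6, 54.1 and 64.5 FPKM in the cKO libraries, from 38 to 137 reads, with a log2 difference of −0.71 (SE 0.31, limma adjusted p = 0.955). The TrnW difference was −0.44 without WT replicate 1 and also −0.44 without cKO replicate 1. Its lowest WT and highest cKO values were close, at 65.3 and 64.5 FPKM. TrnS2, a serine tRNA, had a log2 difference of 1.13 (SE 0.41) on 2 to 14 reads. Over the 17 tested tRNA genes, 8 had a higher and 9 a lower mean in cKO, with a median of −0.02.

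Ratios between genes within a library do not depend on library scaling. Of 13 ratios computed, some between genes that do not adjoin, 3 did not overlap between the groups, against 7.88% of all genes tested singly. The ratios share genes, so they are not independent of each other. The ratio of mt-Rnr2 to mt-Rnr1 was 2.20, 1.61 and 1.68 in WT and 1.36, 1.35 and 1.36 in cKO. TrnL1 stood at 0.0300, 0.0298 and 0.0287 times the level of the adjoining ND1 in WT and at 0.0160, 0.0202 and 0.0207 times in cKO. TrnL1 by itself also stood apart between the groups, so this ratio is not a separate result. ND5 stood at 1.04, 1.23 and 1.19 times the level of ND4 in WT and at 1.01, 0.965 and 0.959 times in cKO. For each of the 3 the exact two-sided permutation test gave p = 0.1, the smallest possible with 3 against 3, and 0.433 after Benjamini-Hochberg adjustment over the 13. The ratio of ND6 to CYTB, whose genes lie on opposite strands, was 0.413 to 0.474 in WT and 0.393 to 0.496 in cKO and overlapped (exact permutation p = 0.9). The strand from which the ND6 reads came cannot be told.

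Nuclear genes that transcribe, process and translate the mitochondrial genome differed in both directions, and none was called. Over 8 lists with 118 genes found, 113 were tested, of which 0 rose and 0 fell. Their log2 differences ranged from −0.37 to 0.45, with a median of 0.01. Of the 113, 1 had an unadjusted p under 0.05 in limma, against 3.04% of all genes. All cKO libraries lay above all WT libraries for 4 of them and below for 5, against 4.20% and 3.67% of all genes. Polrmt, the mitochondrial RNA polymerase, was at 13.2 ± 1.21 FPKM in the WT libraries and 13.7 ± 1.08 FPKM in the cKO libraries. Tfam, which packages mitochondrial DNA and activates its promoters, was at 25.1 ± 2.67 and 25.1 ± 0.993 FPKM (SD, n = 3 each). The 8 tested genes of the transcription list had log2 differences of −0.10 to 0.17. Among 19 genes of DNA replication and maintenance, Polg, the DNA polymerase, was at 7.19 ± 0.356 and 7.13 ± 0.560 FPKM. Twnk, the replicative helicase, was at 11.6 ± 1.30 and 10.7 ± 0.330 FPKM. Rnaseh1, which degrades RNA in DNA hybrids, was at 9.19 ± 0.604 and 10.8 ± 0.473 FPKM without overlap (limma adjusted p = 0.955). It was the 1 gene of this list with all cKO libraries above all WT libraries, and 1 other had all of them below.

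Genes that cut and stabilise mitochondrial transcripts also did not pass. Of the 6 genes for transcript cleavage and tRNA ends, Trmt10c, a subunit of mitochondrial RNase P, was at 13.5 ± 1.85 FPKM in the WT libraries and 13.6 ± 0.295 FPKM in the cKO libraries. Elac2, which cuts the other tRNA end, was at 22.9 ± 2.35 and 21.4 ± 2.16 FPKM, Prorp, the nuclease of RNase P, at 6.07 ± 0.656 and 5.38 ± 0.983 FPKM, and Hsd17b10, another protein of RNase P, at 72.8 ± 6.90 and 83.7 ± 2.79 FPKM without overlap (SD, n = 3 each, limma adjusted p = 0.955). Among 16 genes of RNA stability and decay, Lrpprc, which protects mitochondrial mRNAs, was at 33.2 ± 3.33 and 30.1 ± 1.78 FPKM. Its partner Slirp was at 27.9, 46.5 and 45.8 FPKM in the WT libraries and 47.8, 71.7 and 45.0 FPKM in the cKO libraries, again lowest in WT replicate 1 and highest in cKO replicate 2.

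No gene that modifies, charges or translates these RNAs passed either. Of 21 tested genes that modify rRNA and tRNA, Tfb1m, a methyltransferase of the small-subunit rRNA, was at 4.49 ± 0.797 FPKM in the WT libraries and 4.25 ± 0.136 FPKM in the cKO libraries. Among 22 aminoacyl-tRNA synthetase genes, Sars2, which charges the serine tRNAs, was at 5.59, 5.84 and 6.63 FPKM in the WT libraries and 4.40, 4.34 and 4.56 FPKM in the cKO libraries, without overlap. Its log2 difference was −0.37 (SE 0.11, limma adjusted p = 0.955), and it is the gene of the 8 lists with an unadjusted p under 0.05. Lars2, the leucine synthetase, was at 18.3, 34.3 and 20.9 FPKM in the WT libraries and 24.8, 40.5 and 24.0 FPKM in the cKO libraries, high in replicate 2 of both groups. Of 15 translation factors, the elongation factor Tufm was at 43.8 ± 3.85 FPKM in the WT libraries and 41.9 ± 5.83 FPKM in the cKO libraries, and Ptcd3, a protein of the small ribosomal subunit, at 19.4 ± 0.861 and 17.3 ± 0.531 FPKM without overlap (limma adjusted p = 0.955). Of 7 tested biogenesis regulators, Nrf1 was at 5.11 ± 0.408 and 4.75 ± 0.293 FPKM (SD, n = 3 each), and Ppargc1a stayed below the filter at 0.173 to 0.402 FPKM. In the mitochondrial stress list 8 of 12 genes were tested, 0 rose and 0 fell. Of the 8, 5 had a higher and 3 a lower mean in cKO, with a median log2 difference of 0.08. The groups did not overlap for 1 of the 8 (12.5%), Ddit3, against 7.88% of all genes. Ddit3, a stress transcription factor, was at 3.84, 3.53 and 4.07 FPKM in the WT libraries and 5.16, 5.54 and 5.03 FPKM in the cKO libraries (log2 difference 0.38, SE 0.11, limma adjusted p = 0.955).

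Markers of several other cell types stood apart in the libraries that were lowest and highest in mitochondrial transcripts. In WT replicate 1, where 12 of 13 protein-coding genes were lowest, the summed endothelial markers (9 of 10 tested) reached 194 FPKM, against 46.5 to 70.4 FPKM in the other 5 libraries. There the stroma markers (10 of 10 tested) reached 1542 FPKM, against 514 to 806 FPKM, and the pericyte markers (9 of 10 tested) 101 FPKM, against 21.4 to 32.8 FPKM. The surface epithelium markers (10 of 10 tested) summed to 324 FPKM there, against 639 to 796 FPKM in the others. In cKO replicate 2 the erythroid markers (10 of 10 tested) summed to 13718 FPKM, against 406 to 1239 FPKM in the others. Oocyte markers summed to 1026, 1066 and 1539 FPKM in WT replicates 1, 2 and 3 and to 1285, 1517 and 1135 FPKM in cKO replicates 1, 2 and 3. They were lowest in WT replicate 1 and highest in WT replicate 3, followed by cKO replicate 2. Pregranulosa markers (10 of 10 tested) summed to 575 to 725 FPKM in the WT libraries and 613 to 734 FPKM in the cKO libraries. Macrophage markers (7 of 10 tested) summed to 33.3 to 40.6 and 29.9 to 65.4 FPKM. Of 9 tested mesonephric and oviduct epithelium markers, 3 (33.3%) lay above all WT libraries in all cKO libraries, against 4.20% of all genes, with 0 called, although their summed level overlapped, at 198 to 247 and 208 to 244 FPKM. None of the markers of these lists was at 0 in every library. Of the fat, heart and skeletal muscle markers 1 of 12 was tested, and their sum was 6.61 to 8.61 FPKM over all libraries. The part of these cell types and of handling in the mitochondrial values was not tested.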

How the data were processed

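RNA-seq of total RNA from 3 WT and 3 BCAS2 cKO ovary samples was used, with groups from the sample titles and columns matched by the sample descriptions. The authors deposited FPKM values per gene model. Per the submitters' processing notes, HISAT2 2.0.5 was used and 2 builds, mm10 and GRCm39, are given. The table's chromosome sequence versions are those of GRCm39. The counter, the strand setting and the handling of multiple alignments were not given in the sources used here. FPKM times gene length, divided by 1 step per library, was within 0.05 of a whole number for 100% of values above 0 and below 20000 reads. Median-of-ratios factors of the deposited values were equal in the 6 libraries, so they already carry that scaling. Replicates of a group differed by 12.04 to 59.57 in chi-square per degree of freedom, so none was counted as a repeat of another.

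Values were tested as log2(FPKM + 1), which understates changes of low genes, with limma 3.58.1 in R 4.3.3 (trend, two-sided, Benjamini-Hochberg, threshold 0.05) on genes with at least 1 FPKM in at least 3 libraries. In simulated data 99% of genes changed 4-fold and 41% of those changed 2-fold were recovered over 14692 genes. There were 20 false calls, of which 1 had a mean of 10 or more reads. The changed genes had a mean of at least 50 reads, and the spread between simulated replicates was fixed (dispersion 0.05). That spread was not fitted to these libraries, so the shares need not hold for them. Sequences were aligned with BLASTN at 50 bases or more.

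Named genes are Bcas2, all protein-coding and rRNA members, the 6 most abundant tested tRNA genes, and from each nuclear list the first 2 genes and up to 2 with the smallest p. TrnF, TrnD, TrnS2 and the unnamed gene model were added after their values were seen. Not every gene that rule allows is printed. Members and lists were chosen with earlier results of these data known. The alternatives tried are in the closing section.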

Additional observations from a re-analysis of the deposited data

How the results depend on the processing

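Over all genes, 0 were called by limma in every alternative except without cKO replicate 2, where the count was 1 (range 0 to 1 when leaving out a replicate), the gene being Pcna-ps2, outside the mitochondrial genome and named after its value was seen. Before adjustment 443 genes (276 higher in cKO) had a p under 0.05, against 171 higher of 431 as TPM, 183 higher of 433 scaled to rows outside the mitochondrial genome, 1147 with no filter, 254 with a filter at 5 FPKM, and, when 1 library was left out, 1056 (WT replicate 3), 702 (cKO replicate 3), 293 (cKO replicate 1) and 253 (cKO replicate 2). Limma-voom on the recovered reads called 0 (354 at an unadjusted p under 0.05). For the 21 mitochondrial genes named, no alternative gave an adjusted p under 0.05 (smallest 0.599). Quantile normalization turned ND1 (−0.0797), ND2 (−0.111), ND5 (−0.208), ND6 (−0.0833), TrnP (−0.0323), TrnN (−0.0519) and TrnE (−0.0449), and set COX1, CYTB and the protein-coding median to 0. That method gives the top-ranked genes the same value in every library. Rescaling to TPM turned TrnN (−0.00260) and TrnE (−0.0582), and scaling to the rows outside the mitochondrial genome turned TrnE (−0.0469). Beside these reversals the protein-coding median was 0.19 as TPM and 0.20 with the latter scaling. Leaving out 1 replicate gave log2 differences of −0.182 to 0.128 for ATP8, −0.469 to 0.764 for COX3, −0.0526 to 0.317 for ND5, −0.162 to 0.0922 for TrnC, −0.125 to 0.329 for TrnN and −0.131 to 0.117 for TrnE. The protein-coding median ranged from 0.135 to 0.410, the rRNA median from 0.229 to 0.649, the tRNA median from −0.125 to 0.0880 and the ratio of protein-coding shares from 1.12 to 1.27. Taken as shares of summed FPKM over all 6 libraries, that ratio was 1.09. The cause of these changes was not tested. The samples share only replicate numbers: same-numbered deviations correlated at 0.221, 0.0135 and −0.0278, not every sample correlated best with its own number, and the replicate block gave 0 called genes and 432 at an unadjusted p under 0.05. Depth limits ATP8 and the tRNA genes under 20 reads.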
